A study of Homo sapiens with 4 samples.

Results

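The 10 genes described here are nuclear genes of the mitochondrial transcription and RNA machinery: POLRMT, TFAM, TFB1M, TFB2M, TEFM, MTERF1, LRPPRC, SLIRP, PNPT1 and SUPV3L1. They were listed by symbol for their known roles and not by their values, though earlier results of these data were known. All 10 were found among the 60279 genes of the human count table and among the 11777 genes with a deposited production rate, where MTERF1 stands under the older symbol MTERF. The cells were untreated K562, an established chronic myeloid leukaemia line, and they were given 1 mM of the uridine analogue 4-thiouridine for 5 min (2 libraries) or 15 min (2 libraries). RNA made in that time carries the analogue and was pulled out by way of a biotin tag (TT-seq). An equal mass of RNA from fly S2 cells had been mixed into every sample as an outside standard. The sources used here do not say if libraries with the same label time are separate cultures, so the spread behind each p-value may be technical only.

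Mitochondria carry a small circular genome that is copied into RNA by their own single-subunit RNA polymerase, POLRMT. TFAM bends and packages the DNA and, with TFB2M, lets POLRMT start at the mitochondrial promoters, while TEFM keeps the polymerase moving. The long transcripts are then cut at tRNAs, and the mRNAs are held stable by the LRPPRC and SLIRP complex or degraded by the exonuclease PNPT1 together with the helicase SUPV3L1. All of these proteins are made from nuclear genes and imported. The values below therefore concern newly made nuclear transcripts of these genes, and not the activity of the proteins.

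Many nuclear genes for mitochondrial proteins are known to be controlled by the transcription factors NRF1 and GABPA. Promoter windows of RefSeq (GRCh38.p14, 250 bases before to 50 after a gene's start) were at hand for 10 of 10 genes, with 2 overlapping windows for SLIRP, and were searched on both strands for exact letters. The NRF1 palindrome, which is the core GCATGCGC with GC before it, occurred in 1.24% of 35116 promoter windows and in those of POLRMT and TFB1M. The 8-base core, which lies inside the palindrome, occurred in 3.05% of the windows and in those of POLRMT, TFB1M and TFB2M. The core CCGGAAGT bound by ETS factors such as GABPA occurred in 4.14% of the windows and in those of POLRMT, TEFM and MTERF1. A match is a description of the sequence only.

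POLRMT held all of these motifs. Its palindrome covered bases -24 to -15 before the start, a further copy of the core on the other strand covered -132 to -125, and an ETS core on the other strand covered -94 to -87. The palindrome of TFB1M covered -132 to -123, the core of TFB2M -15 to -8 and the ETS core of MTERF1 -50 to -43. In TEFM the ETS core ran across the start itself. The 250 bases before the start are shown, 5′ to 3′ on the gene's strand, for the 3 genes with NRF1 letters and for MTERF1, with matched motifs in capitals. They are POLRMT at chr19:633538-633787, TFB1M at chr6:155314485-155314734, TFB2M at chr1:246566262-246566511 and MTERF1 at chr7:91880703-91880952, all on the minus strand.
POLRMT: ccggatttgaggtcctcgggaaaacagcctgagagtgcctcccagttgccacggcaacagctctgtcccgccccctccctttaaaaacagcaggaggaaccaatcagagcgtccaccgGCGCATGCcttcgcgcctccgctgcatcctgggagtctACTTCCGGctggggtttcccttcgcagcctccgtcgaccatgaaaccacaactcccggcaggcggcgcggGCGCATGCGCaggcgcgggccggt
TFB1M: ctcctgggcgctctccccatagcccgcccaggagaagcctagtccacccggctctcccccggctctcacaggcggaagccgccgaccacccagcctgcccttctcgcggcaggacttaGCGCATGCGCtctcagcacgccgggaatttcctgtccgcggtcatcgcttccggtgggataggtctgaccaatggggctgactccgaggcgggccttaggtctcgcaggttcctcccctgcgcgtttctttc
TFB2M: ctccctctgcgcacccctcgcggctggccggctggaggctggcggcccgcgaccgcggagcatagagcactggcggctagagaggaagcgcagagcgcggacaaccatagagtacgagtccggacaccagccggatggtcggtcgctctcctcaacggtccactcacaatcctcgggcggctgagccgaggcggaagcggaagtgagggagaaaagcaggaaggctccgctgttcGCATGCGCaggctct
MTERF1: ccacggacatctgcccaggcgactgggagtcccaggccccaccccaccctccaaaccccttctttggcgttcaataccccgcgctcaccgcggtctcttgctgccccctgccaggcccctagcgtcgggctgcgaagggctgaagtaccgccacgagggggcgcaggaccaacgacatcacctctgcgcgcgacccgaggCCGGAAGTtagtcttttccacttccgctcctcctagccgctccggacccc
The windows of TFAM, LRPPRC and PNPT1, genes picked after their values were seen, are shown as well. They hold none of the 3 letter strings, and neither do those of SLIRP and SUPV3L1, which are not shown. Sites that vary from these exact letters were not searched for, so a window without a match may still hold a binding site. A relation between the letter strings and the changes between label times was not tested. The windows shown are TFAM at chr10:58385160-58385409 on the plus strand, and LRPPRC at chr2:43995990-43996239 and PNPT1 at chr2:55693845-55694094 on the minus strand.
TFAM: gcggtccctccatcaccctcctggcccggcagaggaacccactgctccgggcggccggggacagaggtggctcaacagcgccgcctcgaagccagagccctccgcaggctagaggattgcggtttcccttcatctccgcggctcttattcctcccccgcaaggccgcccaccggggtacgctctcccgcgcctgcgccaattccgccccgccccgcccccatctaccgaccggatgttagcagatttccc
LRPPRC: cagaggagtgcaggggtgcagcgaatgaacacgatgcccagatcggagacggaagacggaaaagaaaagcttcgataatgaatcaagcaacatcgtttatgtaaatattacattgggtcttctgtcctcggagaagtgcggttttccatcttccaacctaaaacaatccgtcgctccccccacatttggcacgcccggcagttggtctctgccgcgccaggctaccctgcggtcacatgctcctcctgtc
PNPT1: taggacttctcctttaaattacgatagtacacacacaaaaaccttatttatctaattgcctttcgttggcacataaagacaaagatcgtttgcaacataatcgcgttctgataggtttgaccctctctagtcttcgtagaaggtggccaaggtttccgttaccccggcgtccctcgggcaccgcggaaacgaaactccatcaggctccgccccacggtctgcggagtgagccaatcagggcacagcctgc
The base composition of the windows was also unequal. Those of LRPPRC, PNPT1 and SUPV3L1 held 55.3%, 53.0% and 54.0% G and C, and those of the other members 63.7% to 68.0%, where the median of all windows was 58.7%.

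Each library held between 4339981 and 5051370 reads on human genes and between 308978 and 897018 on fly genes. There were 5.34 human reads for each fly read at 5 min and 15.6 at 15 min (mean, n = 2 each). Genes of the mitochondrial chromosome, the products of this machinery, made up 2.33% ± 0.368 (SD, n = 2) of human reads at 5 min but 6.43% ± 0.715 (SD, n = 2) at 15 min. All 10 erythroid and K562 markers checked, among them GATA1, TAL1 and gamma-globin, had reads and together took 2086 to 2842 CPM (counts per 1000000 human reads, here without further scaling). Marker sums of T cells, B cells, monocytes and fibroblasts stayed between 0.792 and 19.9 CPM, with CD28, MS4A1, MRC1 and MARCO at 0. Epithelial markers reached 155 to 240, of which KRT8 made up 119 to 180, and KRT5 was at 0.

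A pair of quantities was compared between label times. Labelled RNA per fly read measures how much labelled RNA of a gene built up per mass of total RNA, and in bulk samples fewer labelled cells and less labelled RNA per cell cannot be told apart. The share is the CPM scaled by TMM factors so that the bulk of genes is level. Both were tested with edgeR's quasi-likelihood test over 17322 genes, with Benjamini-Hochberg adjusted p-values called at 0.05, and all 10 genes passed the filter on low counts.

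On the fly scale, labelled RNA of all 10 genes rose between 5 and 15 min, in a table where 98.4% of all tested genes rose. The rise ran from 1.91-fold for POLRMT to 3.73-fold for MTERF1, with a median over the genes of 2.73-fold beside 3.20-fold for all tested genes and 2.96-fold for protein-coding ones. Among genes with a deposited production rate, the median rise was 3.13-fold in the lowest quartile of the rate and 2.75-fold in the highest. Whether their rates account for the median of the 10 genes was not tested. The label times themselves differ 3-fold, and 3 of the 10 genes lay above that, beside 58.1% of all tested genes and 47.8% of protein-coding ones. For POLRMT, PNPT1, LRPPRC and TFAM the whole approximate 95% interval (normal, from the SE) lay below 3-fold, and for the other 6 genes it held 3-fold. How many of all tested genes have such an interval was not counted. An error in the fly totals would move all of these values together, which the p-values per gene do not measure.

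As a share of the labelled RNA, 5 of the 10 genes fell and 1 rose. With TMM factors the libraries of the label times did not overlap for 9 of the 10, TFB1M being the exception, and for 67.6% of all tested genes. In CPM without TMM factors TFB2M, SLIRP and SUPV3L1 overlapped and TFB1M did not. Among all tested genes 38.1% were called, 21.3% lower and 16.8% higher, and among protein-coding genes 30.5% were lower and 13.7% higher. POLRMT, PNPT1, LRPPRC and TFAM fell by 0.52 to 0.72 on the log2 scale, SLIRP fell by 0.21 and MTERF1 rose by 0.25. TFB2M, TEFM, TFB1M and SUPV3L1 did not pass. The median log2 fold change was -0.20 over the 10 genes, 0.03 over all tested genes and -0.08 over protein-coding genes. Scaling to total counts in place of TMM shifted the median of all genes by 0.10, made 60.4% rather than 44.1% of all called genes higher, and gave 4 lower and 1 higher among the 10. That scaling called 40.7% of all tested genes. With genes of the mitochondrial chromosome left out of the fit, 5 of the 10 were again lower and 1 higher, beside 38.1% of all tested genes called.

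**Figure D1:**
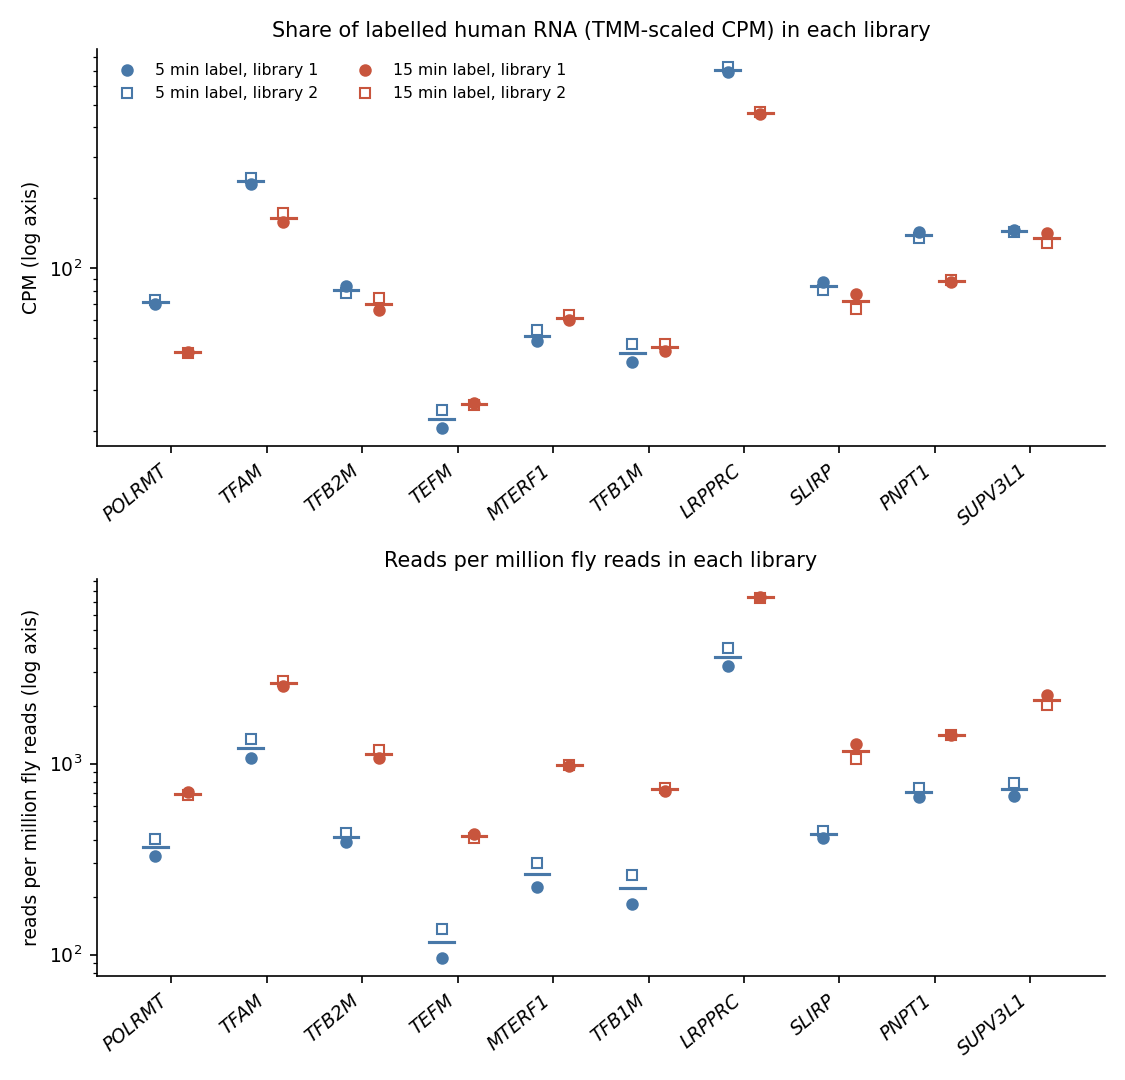
Values of the 10 genes in each library, as TMM-scaled CPM (top) and as reads per 1000000 fly reads (bottom), both on log axes, with filled circles for library 1, open squares for library 2 and a bar for the mean of the 2 libraries of a label time. Per fly read every 15 min library lies above both 5 min libraries, whereas in CPM POLRMT, TFAM, LRPPRC and PNPT1 lie lower after 15 min.

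POLRMT (ENSG00000099821, chromosome 19, 617224 to 633604, minus strand, GRCh38), the mitochondrial RNA polymerase itself, had the most negative change in share of the group. It had 293 and 325 reads after 5 min and 226 and 211 after 15 min, or 70.0 and 72.8 CPM against 43.6 and 43.3 CPM. Both 15 min libraries thus lay far below both 5 min libraries and differed little from each other. Its log2 fold change in share was -0.72 ± 0.102 (SE, adjusted p = 3.98e-11), at percentile 5.93 of all tested genes, and -0.77 to -0.61 over 10 alternatives, in all of which it passed. In reads per 1000000 fly reads it went from 327 and 404 reads to 709 and 683, a 1.91-fold rise with an interval of 1.50 to 2.42 (adjusted p = 1.84e-07).

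TFAM (ENSG00000108064, chromosome 10, 58385022 to 58399221, plus strand), the packaging and initiation factor of mitochondrial DNA, had the second highest level of the group in CPM. It had 963 and 1080 reads after 5 min and 813 and 839 after 15 min, or 230 and 242 CPM against 157 and 172 CPM. The label times did not overlap. The share fell by 0.52 ± 0.0663 on the log2 scale (SE, adjusted p = 8.57e-14), and in reads per 1000000 fly reads the gene rose 2.18-fold, from 1074 and 1343 reads to 2551 and 2715 (adjusted p = 2.79e-11).

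TFB2M (ENSG00000162851, chromosome 1, 246540560 to 246566324, minus strand) melts the promoter together with POLRMT. It had 83.3 and 77.9 CPM after 5 min and 65.9 and 74.5 CPM after 15 min. The label times did not overlap with TMM factors, but their nearest libraries were closer to each other than the 15 min libraries were. Without TMM factors the label times overlapped. The log2 fold change in share of -0.20 ± 0.0897 (SE) did not pass (adjusted p = 0.0638), and it ranged from -0.31 to -0.10 over the alternatives. It passed when replicate 2 of the 15 min libraries was left out (adjusted p = 0.0212) and with the replicate number as a block (0.0411). Labelled RNA per fly read rose 2.74-fold (adjusted p = 7.34e-17).

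TEFM, the elongation factor (ENSG00000172171, chromosome 17, 30897336 to 30906820, minus strand), was the least counted of the group, with 86 and 110 reads after 5 min and 137 and 126 after 15 min. In CPM this was 20.5 and 24.6 against 26.4 and 25.9. Both 15 min libraries were higher, but the log2 fold change in share of 0.21 ± 0.150 (SE) did not pass (adjusted p = 0.279), and at this depth its interval of -0.09 to 0.50 covers no change. Per fly read the gene rose 3.61-fold (adjusted p = 3.49e-19). Its exons overlap those of ADAP2 and of an antisense gene, neither of which had a read in any library.

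MTERF1 (ENSG00000127989, chromosome 7, 91692008 to 91880720, minus strand) binds mitochondrial DNA behind the ribosomal RNA genes, where it can end transcription. It was the only member called higher in share, a call also made in 4 of 10 alternatives. It had 203 and 242 reads after 5 min and 311 and 305 after 15 min, or 48.5 and 54.2 CPM against 59.9 and 62.6 CPM. The label times did not overlap. The log2 fold change was 0.25 ± 0.102 (SE, adjusted p = 0.0368). The rise missed the threshold when replicate 1 of the 5 min libraries (adjusted p = 0.395) or replicate 1 (0.0954) or 2 (0.236) of the 15 min libraries was left out, and with DESeq2 (0.353). Its labelled RNA per fly read rose 3.73-fold, the most in the group, with an approximate 95% interval of 2.93 to 4.75 (adjusted p = 1.37e-25).

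TFB1M (ENSG00000029639, chromosome 6, 155257509 to 155314493, minus strand) is the paralogue of TFB2M and methylates the RNA of the small mitochondrial ribosomal subunit. It had 39.4 and 47.0 CPM after 5 min and 44.1 and 47.4 CPM after 15 min, so that the label times overlapped. The log2 fold change in share was 0.079 ± 0.114 (SE, adjusted p = 0.623), with an interval of -0.14 to 0.30. On the fly scale the gene rose 3.30-fold (adjusted p = 2.34e-20). Its count may take in reads of genes on the other strand: 215 exonic bases are shared with TIAM2, and CLDN20 lies within its span.

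LRPPRC (ENSG00000138095, chromosome 2, 43886508 to 43996005, minus strand), the protein that keeps mitochondrial mRNAs stable and polyadenylated, was by far the most counted of the group. It had 2896 and 3236 reads after 5 min and 2363 and 2274 after 15 min, or 692 and 725 CPM against 455 and 467 CPM. The 15 min libraries lay clearly lower. The share fell by 0.62 ± 0.0603 on the log2 scale (SE, adjusted p = 6.75e-23), and the fall was called in 10 of 10 alternatives. In reads per 1000000 fly reads it rose 2.04-fold, from 3228 and 4025 reads to 7414 and 7360, with an interval of 1.61 to 2.57 (adjusted p = 3.45e-09).

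SLIRP (ENSG00000119705, chromosome 14, 77708071 to 77761104, plus strand) is the small RNA-binding partner of LRPPRC. It had 87.2 and 80.2 CPM after 5 min and 77.5 and 66.9 CPM after 15 min, and the lower 5 min library was close to the higher 15 min library. The log2 fold change in share was -0.21 ± 0.0884 (SE, adjusted p = 0.0485). The fall missed the threshold when replicate 1 of the 5 min libraries (adjusted p = 0.221) or replicate 2 of the 15 min libraries (0.385) was left out, with DESeq2 (0.337) and with total counts (0.365). Labelled RNA per fly read rose 2.72-fold (adjusted p = 9.36e-17). The annotated span of SLIRP overlaps SNW1 on the other strand over 43506 bases, 118 of them exonic in both, and SNW1 itself had 306 to 385 reads per library, so the SLIRP count is uncertain.

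PNPT1 (ENSG00000138035, chromosome 2, 55634265 to 55693910, minus strand), the polynucleotide phosphorylase that degrades mitochondrial RNA, also fell in share. It had 600 reads in each 5 min library and 451 and 434 after 15 min, or 143 and 134 CPM against 86.9 and 89.1 CPM. The label times were well apart. The log2 fold change was -0.66 ± 0.0774 (SE, adjusted p = 6.65e-16), called in 10 of 10 alternatives. On the fly scale it rose 1.99-fold, with an interval of 1.59 to 2.50 (adjusted p = 3.83e-09).

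SUPV3L1 (ENSG00000156502, chromosome 10, 69180232 to 69209099, plus strand), the helicase that works with PNPT1, had 145 and 143 CPM after 5 min and 141 and 128 CPM after 15 min. The label times did not overlap with TMM factors, but the higher 15 min library lay close to both 5 min libraries. Without TMM factors the label times overlapped. The log2 fold change in share of -0.10 ± 0.0723 (SE) did not pass (adjusted p = 0.266), its interval was -0.24 to 0.04, and with total counts it was 0.0023. Labelled RNA per fly read rose 2.92-fold (adjusted p = 1.51e-19).

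**Figure D2:**
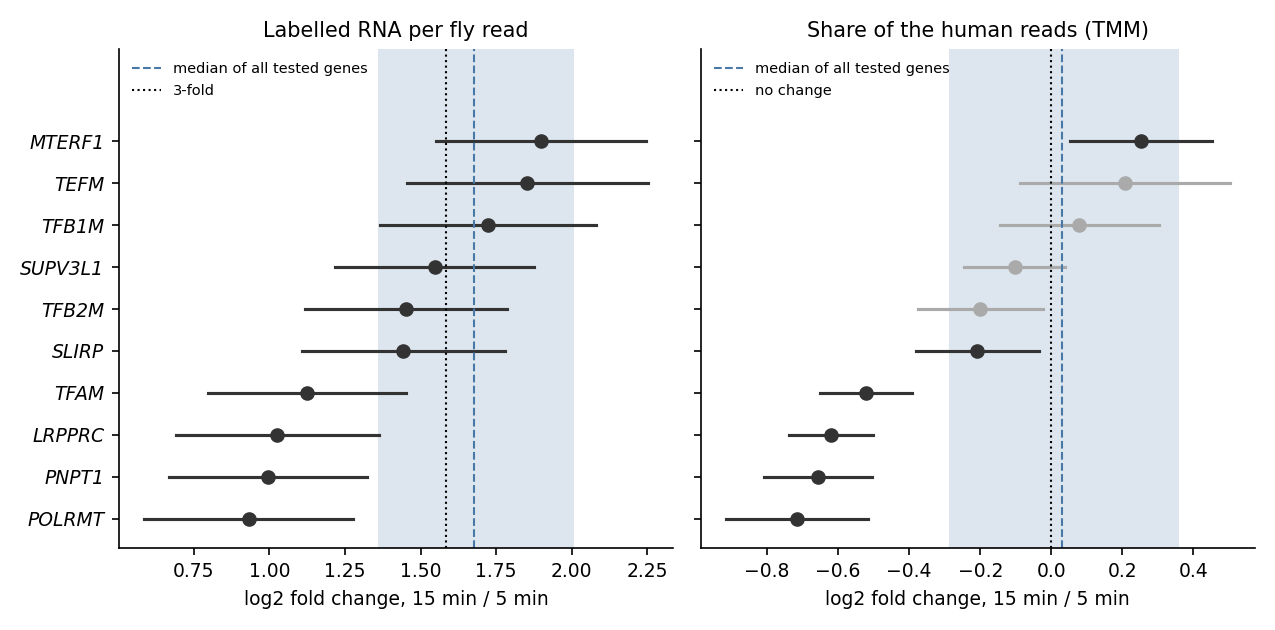
Log2 fold change from 5 to 15 min of each gene per fly read (left) and in TMM-scaled share (right), with approximate 95% intervals, black where the adjusted p was under 0.05 and grey where it was not. Shading spans the quartiles of all tested genes, the dashed line is their median, and dotted lines mark 3-fold and no change. The points of POLRMT, PNPT1, LRPPRC and TFAM lie left of the shading in both panels, and that of MTERF1 lies furthest right.

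Partner genes were also compared within each library, since the ratio of a gene pair needs neither the fly reads nor TMM factors. PNPT1 had 0.985 and 0.939 reads per read of SUPV3L1 after 5 min and 0.618 and 0.698 after 15 min. The mean ratio after 15 min was 0.684 of that after 5 min, and the counting intervals of the label times were apart (0.839 to 1.10 against 0.548 to 0.790, exact Clopper-Pearson, 95%). LRPPRC had 7.93 and 9.04 reads per read of SLIRP after 5 min and 5.88 and 6.98 after 15 min. The mean ratio after 15 min was 0.757 of that after 5 min, with no overlap between label times, although the counting intervals of single libraries overlapped. For TFB2M over TFB1M the ratio was 2.12 and 1.66 after 5 min and 1.49 and 1.57 after 15 min. Here the second 5 min library was close to the 15 min libraries, and the ratio of the means was 0.812, or 0.925 when replicate 1 of the 5 min libraries was left out. For each of the 3 pairs a two-sided exact permutation test gave p = 0.333 (0.333 after Benjamini-Hochberg adjustment), the smallest value that 2 libraries against 2 can give. Intervals cover counting error only.

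**Figure D3:**
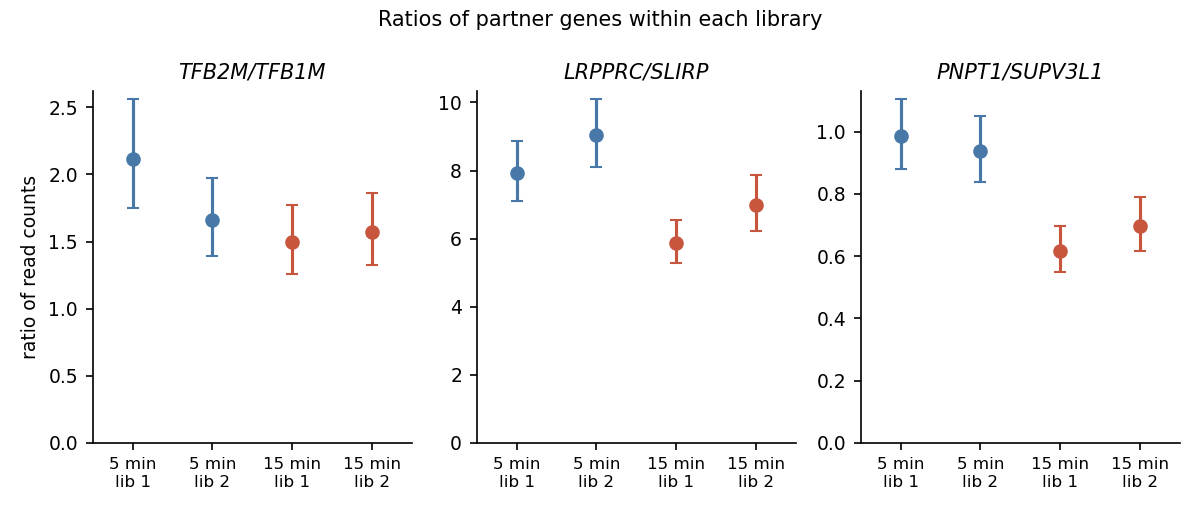
Ratio of read counts of 3 pairs of partner genes in each of the 4 libraries, blue for 5 min and red for 15 min, with 95% exact counting intervals. For PNPT1 over SUPV3L1 both 15 min libraries lie below both 5 min libraries by more than the counting intervals, and for TFB2M over TFB1M the second 5 min library lies beside the 15 min libraries.

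Levels were compared between genes per length, as RPKM over exonic bases, from total human reads without TMM factors. LRPPRC had the highest level at 69.5 ± 1.59 (SD, n = 2) for 5 min and 48.6 ± 0.967 (SD, n = 2) for 15 min, above every other member in each library. TFB2M (41.8 ± 2.41 and 39.1 ± 3.48) and TFAM (40.3 ± 1.02 and 30.2 ± 2.09) came next and overlapped after 5 min, and SUPV3L1 (32.3 ± 0.699 and 32.2 ± 2.13) overlapped TFAM after 15 min. SLIRP (30.5 ± 2.11 and 28.2 ± 2.85) overlapped SUPV3L1 after 5 min. PNPT1 stood at 25.9 ± 1.44 and 17.6 ± 0.350, TFB1M at 15.1 ± 1.73 and 17.2 ± 0.915, and these overlapped after 15 min. POLRMT, MTERF1 and TEFM closed the order. POLRMT stood at 13.3 ± 0.235 and 8.72 ± 0.0134, MTERF1 at 10.1 ± 0.689 and 12.9 ± 0.429, and TEFM at 6.71 ± 0.792 and 8.34 ± 0.101. POLRMT was thus above MTERF1 after 5 min and below it after 15 min. Whether reads were counted over exons or whole genes is not stated in the labels or files. Divided by the whole annotated gene instead, none of the 10 kept its place, and TFAM came first and MTERF1, whose annotated span is 188713 bases, last.

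The production rate that the authors deposited, 1 value per gene with no error and no stated unit, put 9 of the 10 genes above the median of all genes with a rate (0.0114). LRPPRC and TFAM had the highest rates, both 0.0971, at the 96.7th percentile of all rates. TFB2M followed at 0.0552 (percentile 91.5), SUPV3L1 at 0.0481 (89.6) and PNPT1 at 0.0342 (82.8). TFB1M stood at 0.0192 (65.9), POLRMT at 0.0187 (65.1) and TEFM at 0.0182 (64.2), and SLIRP (0.0138) at percentile 55.8. MTERF1 was the exception at 0.0030, percentile 21.6. Over the 10 genes the rate rose with the level per exonic kilobase (Spearman's rho 0.81, across genes that share the same 4 libraries), as it did over 11639 genes (rho 0.91). With the gene span as length rho over the 10 genes was 0.79, and with plain CPM 0.73. The rate may come from the same reads as the level, so these values are no independent check.

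The wider machinery was taken from a list of 58 other nuclear genes for mitochondrial transcription, RNA processing and modification, mitochondrial DNA upkeep and their nuclear control. Of these 57 were tested, and the coactivator gene PPARGC1A, with 0 to 1 read per library, was not. In share 15 rose and 13 fell, beside 16.8% and 21.3% of all tested genes and 13.7% and 30.5% of protein-coding ones. The median log2 fold change over the list was -0.03. With total counts 18 rose and 6 fell, where 4253 and 2792 of the 17322 tested genes did. With DESeq2 10 rose and 3 fell, where 829 and 2234 of them did. Per fly read 57 of 57 rose, where 98.4% of all tested genes did. Their median rise was 3.07-fold, beside 3.20-fold for all tested genes and 2.96-fold for protein-coding ones.

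Both directions occurred in every role group. Among processing and stability factors 5 of 17 rose and 4 fell, among RNA modification enzymes 5 of 18 rose and 3 fell, among genes for mitochondrial DNA upkeep 2 of 9 rose and 3 fell, and among nuclear control genes 2 of 9 rose and 2 fell. Of the 4 remaining transcription genes MTERF4 rose and TOP1MT, the mitochondrial topoisomerase gene, fell by 0.45 on the log2 scale (adjusted p = 0.000377). MTERF4, a relative of MTERF1 that acts in ribosome assembly, had 28.9 and 31.1 CPM after 5 min and 49.7 and 48.7 CPM after 15 min. Its gain of 0.71 ± 0.123 (log2, SE, adjusted p = 7.46e-08) was the largest of the list, but 5071 of its exonic bases are shared with SNED1 on the other strand, so its count is uncertain.

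TWNK, the helicase that unwinds mitochondrial DNA, had 80.7 and 78.6 CPM after 5 min and 130 and 120 CPM after 15 min. Its share rose by 0.66 ± 0.0805 (log2, SE, adjusted p = 9.5e-15), and per fly read it rose 4.95-fold. FASTK, the founding gene of a family of mitochondrial RNA-binding proteins, rose by 0.61 ± 0.0842 (log2, SE, adjusted p = 8.23e-12) and 4.80-fold per fly read. TWNK shares 149 exonic bases with MRPL43 on the other strand. The largest loss was that of HSD17B10, a subunit of the enzyme that cuts the 5′ ends of mitochondrial tRNAs, from 58.3 and 62.9 CPM to 23.9 and 27.9 CPM (log2 fold change -1.23 ± 0.120, SE, adjusted p = 6.88e-23). Its labelled RNA per fly read rose 1.34-fold (adjusted p = 0.0262). That rise missed the threshold when replicate 1 of the 5 min libraries (0.0935) or replicate 1 (0.13) or 2 (0.329) of the 15 min libraries was left out, with DESeq2 (0.0803) and with TMM factors of the fly genes (0.0557), which makes 5 of 8 alternatives.

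PRIMPOL, a primase-polymerase, and GABPB2, a partner subunit of GABPA, fell by 0.62 (adjusted p = 0.00305) and 0.54 (adjusted p = 0.0145) in share. PRIMPOL missed the threshold when replicate 2 at 5 min (0.136) or at 15 min (0.0626) was left out, and GABPB2 when replicate 2 at 5 min (0.263) or replicate 1 at 15 min (0.102) was. With DESeq2 neither passed (0.132 for PRIMPOL and 0.23 for GABPB2), and with total counts GABPB2 did not (0.0537). PRIMPOL also shares 346 exonic bases with CENPU on the other strand. The most counted genes of the list were TBRG4, SSBP1 and DHX30. TBRG4, of the FASTK family, rose by 0.24 ± 0.0612 in share (log2, SE, adjusted p = 0.000413). SSBP1, which coats single-stranded mitochondrial DNA, did not pass (-0.093 on the log2 scale, adjusted p = 0.228), nor did DHX30, an RNA helicase of mitochondrial granules (-0.052, adjusted p = 0.559). TBRG4 overlaps the small RNA genes SNORA5A and SNORA5C on its own strand (171 and 121 reads over the 4 libraries). It also shares 132 exonic bases with SNORA5B. SSBP1 overlaps TAS2R3 and TAS2R4 on its own strand (307 and 340 reads), so the counts of TBRG4 and SSBP1 are uncertain.

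**Figure D4:**
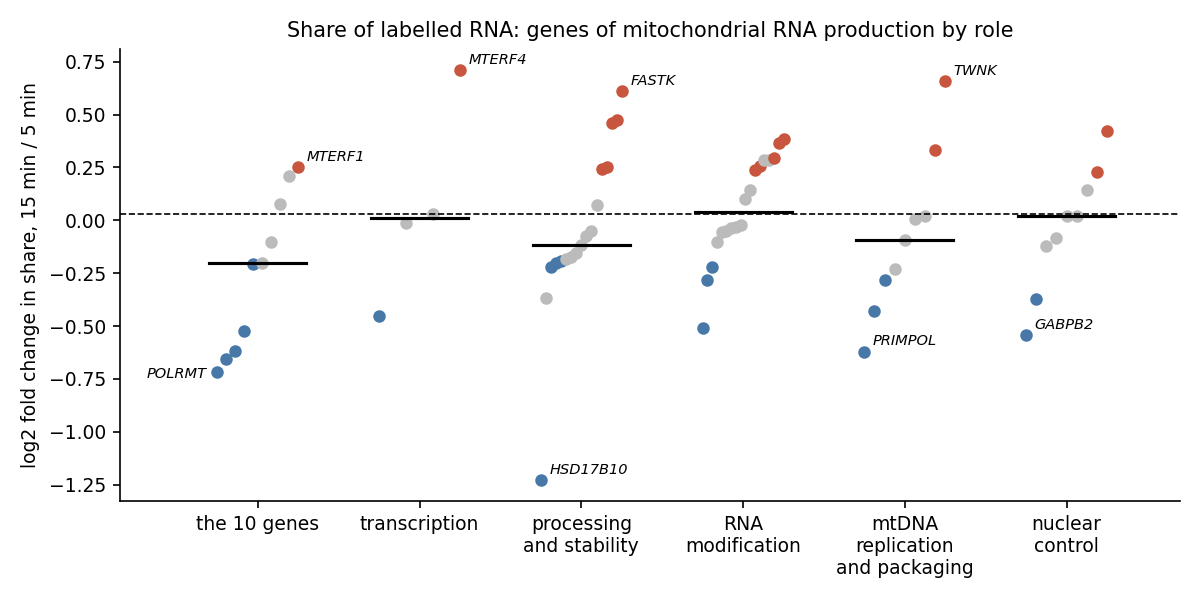
Log2 fold change in TMM-scaled share from 5 to 15 min, 1 point per gene, for the 10 genes and for 57 others grouped by role, red where the gene rose, blue where it fell and grey where the adjusted p was 0.05 or more. Black bars are group medians and the dashed line is the median of all tested genes. The 10 genes have a median of -0.20, and every group, the 10 genes included, has points on both sides of the dashed line.

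Among 2766 genes of a similar level, the patterns closest to POLRMT over the 4 libraries, by Euclidean distance of centred log2 CPM, were those of MAP1A (0.0290), PRDX2 (0.0475) and NDUFB10 (0.0478). Their log2 fold changes in share were -0.74, -0.75 and -0.67, beside -0.72 for POLRMT. This likeness follows from how they were picked.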

How the data were processed

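For all 4 libraries the authors deposited unnormalized whole-number counts of reads, in 1 table of human and 1 of fly genes. The submitters' processing notes name STAR 2.7, Subread 2.0.1, featureCounts, edgeR and bcl2fastq 2.17.1.14, and the builds hg38 and dm6, without roles or order. The deposited production rate, used as a score, is 1 value per gene, whose computation, like the counting feature and strand setting, was not stated in these sources, which leaves genes that overlap others uncertain.

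Symbols, positions and exonic lengths came from GENCODE 29 (GRCh38), in which 56590 of 60279 identifiers were found. Share was tested with edgeR 4.0.16 (filterByExpr, minimum count 10; robust quasi-likelihood fit with TMM factors and label time as its 1 term). Labelled RNA per fly read was tested in the same way with fly read totals as library sizes. P-values were two-sided and adjusted over all 17322 tested genes, and SEs were taken from the F statistic. In simulated counts of 16911 genes, 82 of 100 genes changed 1.5-fold and 98 of 100 changed 2-fold were recovered in the share test, with 6 false calls. The changed genes were well counted ones, moved equally in both directions, and all genes had the same spread. Far fewer genes were changed than the 38.1% called in the data, so these figures do not give the power of the real test. Between replicate libraries the chi-square per degree of freedom was 1.62 at 5 min and 1.78 at 15 min, above sampling noise, and they were kept as separate samples.

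The 10 genes and the lists were chosen with earlier results of these data known. All members are named. Of the wider list the 3 with the highest CPM are named, and in each comparison the 3 largest called changes in each direction with average log2 CPM from 2 upwards. The genes closest to POLRMT were the 3 nearest with an average log2 CPM within 0.5 of it. TOP1MT, PPARGC1A and the genes that overlap named ones were added after their values were seen. Alternatives were DESeq2 1.42.0 (without independent filtering), other scalings, no filter, a replicate block and leaving out each library.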

Additional observations from a re-analysis of the deposited data

How the results depend on the processing

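In the main fit 98.4% of all tested genes rose per fly read. Labelled RNA per fly read rose for 10 of the 10 genes under each of 8 alternatives. With all libraries 3 of them lay above 3-fold, beside 58.1% of all tested genes, and 2 to 4 did when single libraries were left out. In share, 6 of the 10 were called, beside 38.1% of all tested genes. With DESeq2 and with no filter 4 were called, beside 17.7% and 18.8% of the genes tested. With total counts and with RLE factors 5 were called, beside 40.7% and 37.7%. POLRMT, TFAM, LRPPRC and PNPT1 were called lower in all 10 alternatives, whereas MTERF1 was called in 4 and SLIRP in 5. Signs of share changes turned for some genes that had not passed. TFB1M had -0.069 to 0.20 when single libraries were left out, and with total counts SUPV3L1 had 0.0023, DHX30 0.053 and SSBP1 0.012 (log2). Other uncalled genes of the wider list also crossed 0, such as MTERF2 (-0.065 to 0.14). Of the wider list 28 were called, 13 with DESeq2, and the 13 that fell became 3 with DESeq2, 6 with total counts and 7 to 12 when single libraries were left out. Over all tested genes DESeq2 called 829 higher and 2234 lower, where edgeR called 2915 and 3692. With gene span as the length 0 of the 10 kept their place in the order of levels. The cause of these shifts was not tested. The low counts of TEFM, 86 to 137 reads per library, limit what its test could detect.

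The labels do not say that a replicate number marks a shared culture or day, so the numbers were not taken to pair libraries. Deviations of same-numbered libraries from their label-time means correlated weakly (r = 0.049 over 17322 genes). Counting error enters each gene's deviation, so this value cannot decide if the libraries are paired. With the replicate number as a block 7 of the 10 were called in share, TFB2M being added (adjusted p = 0.0411). Of the wider list 30 of 57 were called in share with the block. Among all tested genes 40.2% were called in share with the block. Per fly read 10 of 10 were called with it, where 98.4% of all tested genes rose without the block. Within replicate numbers 1 and 2, the pair ratios after 15 min relative to 5 min were 0.627 and 0.743 for PNPT1 over SUPV3L1, 0.741 and 0.772 for LRPPRC over SLIRP, and 0.706 and 0.948 for TFB2M over TFB1M.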
